A study of Mus musculus with 6 samples.

Results

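The classical cadherins and the non-clustered protocadherins are the genes described here. They were chosen by name alone, as every symbol made of Cdh or Pcdh and a number (with or without a final x) that had 10 or more UMIs (unique molecular identifiers, 1 per captured RNA molecule) over all nuclei. Of 34 such symbols among the 19,954 genes of the table, 31 met the count. Cdh17, Cdh26 and Pcdh12, with 1, 2 and 3 UMIs, did not. The 31 genes comprise 5 type I cadherins, 13 type II cadherins, the GPI-anchored Cdh13, the long cadherin Cdh23, 4 delta-1 and 5 delta-2 protocadherins, and the protocadherins Pcdh15 and Pcdh20. Together they held 241,242 UMIs, which was 1.33% of all UMIs, and Pcdh9 alone gave 49.3% of these.

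Nuclei were isolated from lumbar cord of C57BL/6 mice (genotype wild type) whose legs had been paralysed by a severe thoracic contusion. All 6 samples were taken after 30 min on a treadmill, 3 without stimulation (CON 1 to 3, labelled paralyzed) and 3 with epidural electrical stimulation (TESS 1 to 3). The series text says that TESS was given together with 5-HT1a (serotonin receptor) and D1 (dopamine receptor) agonists, and leaves unclear whether CON mice had them too. The tissue label says lumbar cord, but the protocol speaks of dissecting the thoracic injury. Nothing in the labels ties a sample to its own animal, and p-values therefore measure only the spread between these samples, which may be technical. CON 1, CON 2 and TESS 1 carry batch number 3 in the deposited metadata, whereas CON 3, TESS 2 and TESS 3 each have a number of their own, and no source used here says what the number means.

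The table holds 18,514 nuclei, of which 6035 are neurons in 38 subtypes named by the authors. CON samples had 3416 to 3780 nuclei and 3,365,530 to 4,037,976 UMIs, and TESS samples had 2192 to 2839 nuclei and 1,582,104 to 2,891,177 UMIs, so TESS was the shallower group. The summed markers of each major type were highest in the type of that name. Markers of other types were nevertheless counted in every type (6 neuron markers gave 1166 to 2406 CPM in oligodendrocytes and 16,189 to 23,309 CPM in neurons). Of 18,308 barcode sequences, 205 occurred in more than 1 library. Within a group the neuron counts of any pair of samples had a chi-square per degree of freedom of 1.62 to 5.84, where counting error alone would give about 1, so no pair looked like repeats of 1 library. Levels are given in CPM, the UMIs of a gene per 1000000 UMIs of that cell type in that sample, and CPM are compared only within a gene because they are not corrected for gene length. In such data fewer expressing nuclei and less RNA per nucleus cannot be told apart from a sum.

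Cadherins are calcium-dependent adhesion proteins that bind across the gap between cells, mostly to the same or a closely related cadherin on the neighbour. Type I and type II cadherins hold on to the actin skeleton through catenins, and neurons that share a set of type II cadherins tend to sort together, as the motor pools of the spinal cord do. Delta protocadherins adhere more weakly. Many of the delta-2 group recruit the WAVE complex, an organiser of branched actin.

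The genes are unusually long, and several lie side by side. In GENCODE vM21 (GRCm38) their median length was 145 kb, from 4.538 kb for Pcdh8 to 1550 kb for Pcdh15, against 30.47 kb for the genes tested in neurons. Cdh18 spans chr15:22549022-23474418 on the plus strand, Cdh3 spans chr8:106510891-106557297 on the plus strand, and Pcdh8 spans chr14:79766775-79771312 on the minus strand. Chromosome 15 holds 5 type II genes (Cdh6, Cdh9, Cdh10, Cdh12 and Cdh18) and chromosome 8 holds 7 members, Cdh3 and Cdh8 among them. In 24 of the 31 members another annotated gene overlaps, in 5 of them a coding one (Cdh12, Cdh15, Cdh23, Cdh24 and Pcdh11x), and for these the reads could come from either gene because the strand used in counting is not given.

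The 250 bases before a RefSeq transcript start of 3 members are shown, from RefSeq promoter windows on GRCm38.p6. Cdh10 and Cdh20 are printed because both were high in some neuron subtypes and in astrocytes, and Pcdh8 because it had the largest log2 change under TESS in neurons. The Cdh10 window is chr15:18820079-18820328 on the plus strand, the Cdh20 window is chr1:104768270-104768519 on the plus strand, and the Pcdh8 window is chr14:79771313-79771562 on the minus strand, each written in the direction of transcription. In GENCODE vM21 the Cdh20 and Pcdh8 windows lie before the gene. The Cdh10 window lies inside the gene as annotated there, directly before a later transcript start. No exon annotated in GENCODE vM21 lies in these windows. Capitals mark the motif CANNTG (E-box), which reads the same on both strands.
Cdh10: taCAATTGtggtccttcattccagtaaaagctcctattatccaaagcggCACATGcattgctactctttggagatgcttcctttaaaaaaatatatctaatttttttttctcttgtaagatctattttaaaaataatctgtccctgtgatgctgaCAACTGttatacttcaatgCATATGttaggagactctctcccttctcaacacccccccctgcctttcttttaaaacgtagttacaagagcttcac
Cdh20: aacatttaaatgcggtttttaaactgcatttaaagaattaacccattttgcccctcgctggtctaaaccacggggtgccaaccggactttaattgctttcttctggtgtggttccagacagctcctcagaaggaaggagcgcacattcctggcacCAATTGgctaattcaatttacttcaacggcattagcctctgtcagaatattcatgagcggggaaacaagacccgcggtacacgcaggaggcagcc
Pcdh8: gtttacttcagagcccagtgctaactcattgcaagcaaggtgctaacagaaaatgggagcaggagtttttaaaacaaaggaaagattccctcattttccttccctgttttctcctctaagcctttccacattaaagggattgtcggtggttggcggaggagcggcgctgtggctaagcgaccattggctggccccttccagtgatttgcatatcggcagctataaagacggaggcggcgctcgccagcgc

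The Cdh10 window held 4 E-boxes, the Cdh20 window 1 and the Pcdh8 window none. For 21 of the 31 members 24 windows were found, 3 of them for Cdh7 and 2, which overlap, for Pcdh9. Of the 24 windows 13 lie at least partly inside the gene as GENCODE vM21 annotates it. An E-box was in 13 of the 24, compared with 66.2% of 32,851 promoter windows of the same length. The GC box GGGCGG was in 9 (32.7% of all windows) and the homeodomain core TAATTA in 1, a Cdh7 window (4.84%). The cyclic AMP response element TGACGTCA (1.55% of all windows) and the AP-1 motif TGACTCA (4.46%) were in none. All were searched on both strands. These are letter matches, not measured sites.

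Neuron subtypes carried different combinations of these genes. In the 24 subtypes with at least 10 nuclei in every sample, a member was taken as raised where its mean was at least 2 times the mean over the 24 subtypes, its level was above that mean in all 6 samples, and it had at least 10 UMIs. This is a description without a test, because the authors clustered the same nuclei on their expression, and gene levels within a cluster are part of what made it. By this rule 40 pairs of gene and subtype were raised, in 19 subtypes and for 19 members. The subtypes Pdyn and Lxh1/Nxph1 had 4 raised members each, 6 subtypes had 3 or more, 13 had 1 or 2, and 5 had none (Crh, Grpr, Rorb, V1/V2b/Nxph1 and V2a/Slc17a6). In the remaining 14 subtypes, which had fewer nuclei, only summed counts are given.

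**Figure D1:**
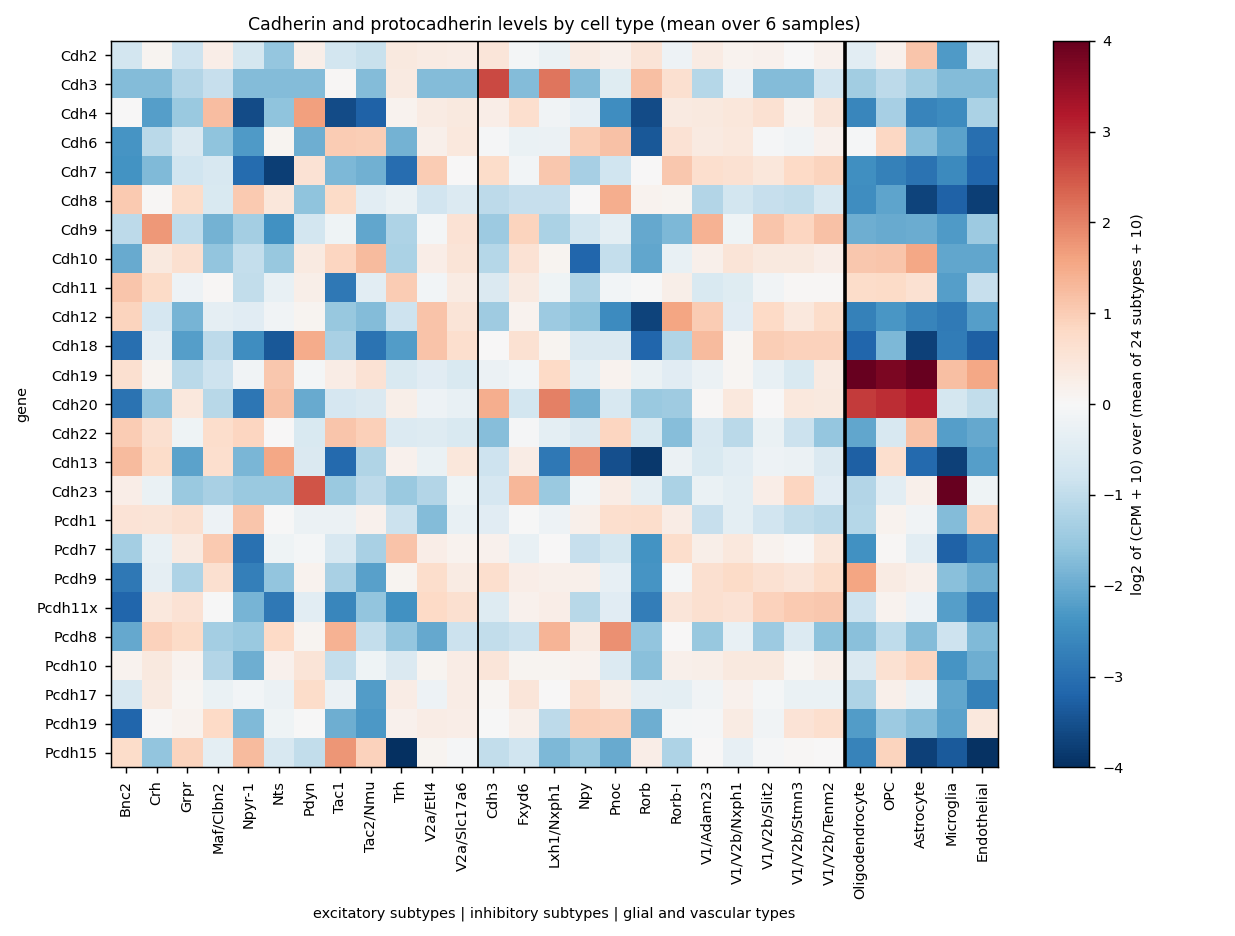
Level of the 25 members with 100 or more UMIs in neurons (rows) in 24 neuron subtypes and 5 glial and vascular types (columns), as log2 of the mean CPM over 6 samples plus 10 relative to the mean over the 24 subtypes plus 10; colours are clipped at 4 in either direction. Cdh3 stands out in the Cdh3 and Lxh1/Nxph1 subtypes, Cdh23 in Pdyn and in microglia, and Cdh19 and Cdh20 in oligodendrocytes, their precursors (OPC) and astrocytes.

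Among the type I cadherins, Cdh3 (P-cadherin) had the narrowest range in neurons of those with more than 100 UMIs. In the inhibitory subtype that the authors named after it, Cdh3 read 169, 111 and 161 CPM in CON 1, 2 and 3 and 158, 241 and 332 CPM in TESS 1, 2 and 3 (195 ± 78.9, SD, n = 6, 77 UMIs in 220 nuclei). Among the 24 subtypes only the inhibitory Lxh1/Nxph1 subtype was also raised, at 134 ± 36.4 CPM from 32 UMIs. It was below the Cdh3 subtype in 5 of 6 samples. In 12 of the 24 subtypes no Cdh3 UMI was counted. Rorb averaged 65.3 ± 84.3 CPM, but from 9 UMIs. Some smaller inhibitory subtypes, with summed counts only, held Cdh3 too, beside a summed 176 CPM in the Cdh3 subtype. Crabp1 had 167 CPM (22 UMIs), Nxph1-/Adamts5 113 CPM (14 UMIs) and Nrgn/Rora-I 102 CPM (12 UMIs). In CSF-N and Spp1 no Cdh3 UMI was counted.

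The other type I genes were broader. Cdh4 (R-cadherin) was raised in Pdyn, with 336, 254 and 218 CPM in CON and 269, 638 and 432 CPM in TESS, and in Maf/Clbn2 (267 ± 76.0 CPM). It was not counted in Rorb. Cdh2 (N-cadherin, the general neural cadherin) was raised nowhere: its highest subtype mean was 265 ± 118 CPM in Rorb and its lowest 56.5 ± 25.2 CPM in Nts. Cdh1 (E-cadherin, of epithelia) and Cdh15 (M-cadherin, of muscle) had 4 and 34 UMIs in all neurons and are given no pattern.

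The type II gene Cdh18 was highest in the excitatory Pdyn subtype, at 3588, 4477 and 3008 CPM in CON and 2667, 5491 and 2293 CPM in TESS (3587 ± 1206 CPM, 1081 UMIs). V1/Adam23 (3105 ± 499 CPM) and V2a/Etl4 (2832 ± 324 CPM) were the other raised subtypes. Pdyn was above V1/Adam23 in 4 of 6 samples, so the order at the top is within the spread between samples. Next came V1/V2b/Slit2 (2510 ± 423 CPM), V1/V2b/Tenm2 (2441 ± 163 CPM) and V1/V2b/Stmn3 (2439 ± 331 CPM), which lay within 1 SD of each other. At the other end stood Nts (111 ± 99.8 CPM, 13 UMIs), Rorb (131 ± 59.8 CPM), Bnc2 (148 ± 159 CPM) and Tac2/Nmu (155 ± 39.6 CPM). These low subtypes do not differ beyond their spread.

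Cdh8, a type II cadherin known from first synapses of cold-sensing afferents in the dorsal horn, ran the other way. It was highest in the inhibitory Pnoc subtype, at 2040, 1895 and 1879 CPM in CON and 2870, 3011 and 1772 CPM in TESS (2244 ± 548 CPM, 567 UMIs), followed by Npyr-1 (1685 ± 281 CPM) and Bnc2 (1684 ± 559 CPM). Its lowest subtype was Pdyn, at 259 ± 89.1 CPM, the subtype where Cdh18 was highest. Across the 24 subtypes the log2 levels of Cdh18 and Cdh8 had a Pearson r of -0.70 (Spearman's rho -0.79), the lowest of the 210 pairs among the 21 members with at least 200 UMIs.

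**Figure D2:**
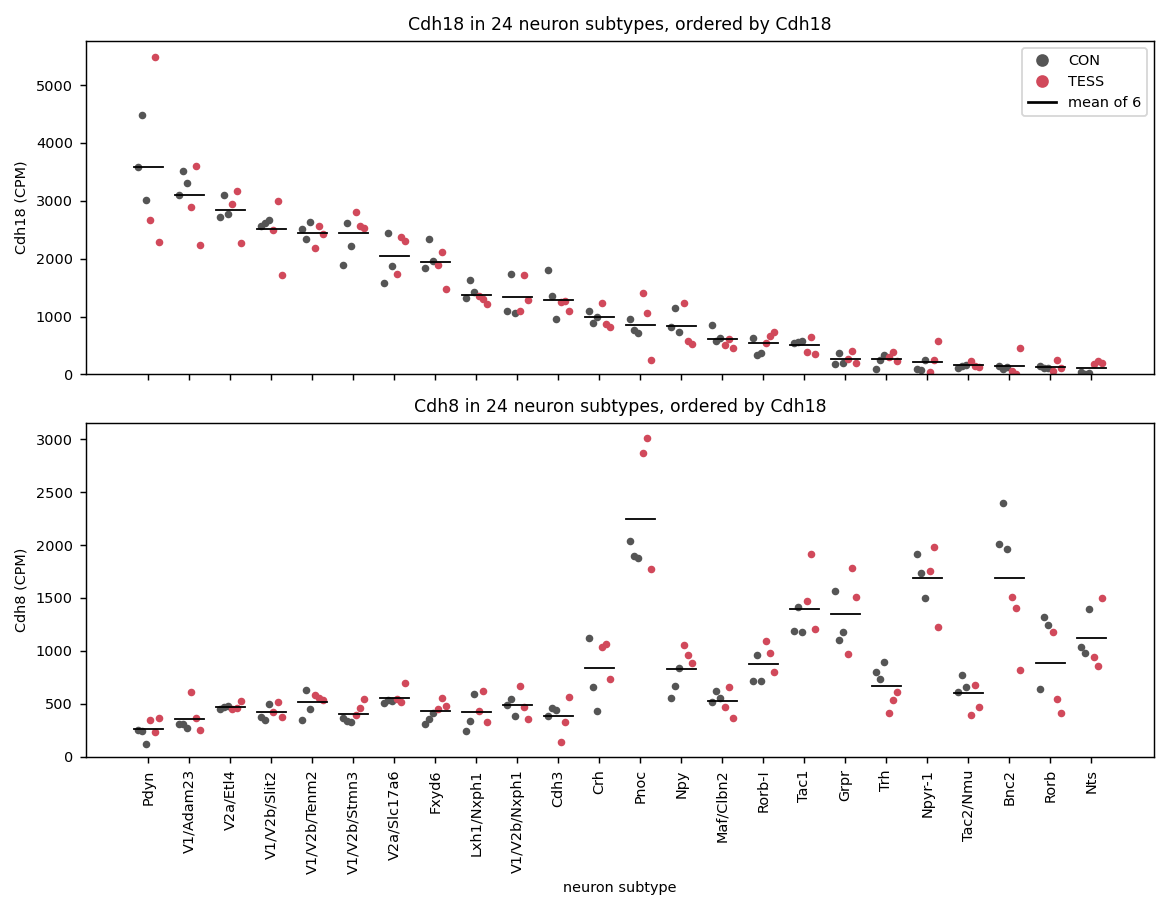
CPM of Cdh18 (top) and Cdh8 (bottom) in 24 neuron subtypes, ordered by the mean of Cdh18; each point is 1 sample and each bar the mean of 6. Cdh18 runs from 3587 CPM in Pdyn to 111 CPM in Nts, and Cdh8 is lowest, at 259 CPM, in Pdyn.

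Gene pairs were compared on log2 of CPM plus 10. The likest pairs were Cdh18 with Pcdh9 (r = 0.84), Pcdh19 with Pcdh9 (0.82), and Cdh18 with Pcdh11x (0.80), against a median of 0.21 over the 210 pairs, each r over 24 subtypes. The subtypes share libraries and differ in depth, and depth moved with these genes: r with the log2 median UMIs per nucleus of the subtype was 0.77 for Cdh18, 0.71 for Pcdh9, 0.72 for Pcdh11x and -0.69 for Cdh8. The part of depth in these values was not tested, and no p is given.

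Of the other type II genes Cdh5, Cdh19 and Cdh24 were raised in no subtype, and the rest in 1 to 3 subtypes each. Cdh20, known in the chick as the cadherin of motor neuron pools, read 628 ± 164 CPM in Lxh1/Nxph1 and 420 ± 130 CPM in the Cdh3 subtype, so the pair of subtypes raised for Cdh3 was raised for Cdh20 too. It was also raised in the excitatory Nts subtype (343 ± 152 CPM). Cdh12 was highest in Rorb-I, at 701 ± 128 CPM, and was raised together with Cdh18 in V1/Adam23 (472 ± 75.1 CPM) and V2a/Etl4 (523 ± 75.2 CPM). Cdh7 was raised in Rorb-I (278 ± 132 CPM), Lxh1/Nxph1 (278 ± 103 CPM) and V2a/Etl4 (264 ± 85.5 CPM), which lie within 1 SD of each other.

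Cdh9, a cadherin of hippocampal mossy fibre synapses, was raised only in 3 subtypes with V1 in their names: V1/Adam23 (130 ± 64.3 CPM), V1/V2b/Tenm2 (110 ± 33.3 CPM) and V1/V2b/Slit2 (106 ± 27.3 CPM). V1/V2b/Stmn3 and V1/V2b/Nxph1 were not raised for it. The highest Cdh9 mean of the 24 subtypes, 167 ± 159 CPM in Crh, ran from 0 to 406 CPM between samples and so did not meet the rule. In Spp1, a smaller inhibitory subtype, the summed Cdh9 level was 196 CPM from 56 UMIs, beside a summed 164 CPM in Crh. Cdh10 (703 ± 214 CPM), Cdh22 (120 ± 45.7 CPM) and Cdh6 (196 ± 71.3 CPM) were raised together in the excitatory Tac2/Nmu subtype. Tac1 had the highest mean of Cdh22 among the 24 subtypes (134 ± 70.1 CPM) and Pnoc that of Cdh6 (223 ± 103 CPM), and neither met the rule. Tac2/Tacr3, a smaller subtype of 72 nuclei, had a summed Cdh10 level of 1279 CPM from 153 UMIs. Cdh11 (OB-cadherin) was raised in Bnc2 alone (291 ± 128 CPM, 29 UMIs), although Trh reached 274 ± 93.6 CPM. Motor neurons (MN, 69 nuclei, too few for values per sample) had the highest summed level of Cdh6 of all 38 subtypes, 344 CPM from 90 UMIs.

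Cdh13 (T-cadherin), which has a lipid anchor in place of a cytoplasmic tail, was raised in 3 subtypes. In the inhibitory Npy subtype it read 1178, 1659 and 1725 CPM in CON and 916, 956 and 618 CPM in TESS. Its log2 change there did not pass (-0.83 ± 0.32, SE, edgeR adjusted p = 0.463). Nts (962 ± 312 CPM) and Bnc2 (788 ± 120 CPM) followed.

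Cdh23 and Pcdh15, partners in the tip link of inner-ear hair cells, were raised in different subtypes. Cdh23 read 126, 174 and 139 CPM in CON and 134, 128 and 199 CPM in TESS in the Pdyn subtype (150 ± 29.9 CPM, 44 UMIs), and was also raised in Fxyd6 (59.5 ± 26.5 CPM). Pcdh15 was highest in Tac1 in each of the 6 samples, from 4312 to 5951 CPM (5281 ± 600 CPM, 2048 UMIs). Npyr-1 was next among the 24 subtypes, at 3716 ± 536 CPM, and below Tac1 in all 6. Trh was lowest for Pcdh15, at 83.5 ± 59.3 CPM.

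Of the delta-1 protocadherins, Pcdh7 was raised in the excitatory Trh (3277 ± 817 CPM) and Maf/Clbn2 (3028 ± 414 CPM) subtypes. Pcdh11x was raised in V1/V2b/Tenm2 (622 ± 73.2 CPM) and V1/V2b/Stmn3 (609 ± 92.1 CPM), which do not differ beyond their spread. Pcdh9 was raised nowhere by the rule. It ran from 567 ± 361 CPM in Bnc2 to 7143 ± 864 CPM in V1/V2b/Nxph1. Pcdh1 peaked at 61.3 ± 39.6 CPM in Npyr-1.

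Of the delta-2 protocadherins, Pcdh8 (arcadlin, a protocadherin induced by neuronal activity) was raised in Pnoc and Lxh1/Nxph1. In Pnoc it read 146, 154 and 197 CPM in CON and 209, 49.0 and 63.3 CPM in TESS (136 ± 66.8 CPM, 38 UMIs). In Lxh1/Nxph1 it averaged 96.6 ± 44.4 CPM. Pcdh18 was raised in Pdyn alone (38.3 ± 14.6 CPM) and from 11 UMIs. Pcdh10 (81.2 ± 46.8 CPM in Pdyn), Pcdh17 (364 ± 98.0 CPM in Pdyn) and the X-linked Pcdh19, an epilepsy gene (162 ± 214 CPM in Npy), had their highest means in these subtypes without meeting the rule. So did Pcdh20, at 16.9 ± 28.4 CPM in Rorb-I. In total 12 members were raised in no subtype.

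The 14 smaller subtypes, with summed counts only, add to these patterns. For 15 members a smaller subtype with at least 10 UMIs of the gene had a higher summed level than any of the 24. Pcdh7 stood at 4007 CPM in Rora/Parp8 (822 UMIs), 4168 CPM in CSF-N, 3686 CPM in Crabp1 and 3684 CPM in Nrgn/Rora-I, against a summed 3217 CPM in Trh. Pcdh11x stood at 1009 CPM in Nxph1-/Adamts5 (125 UMIs) and Cdh13 at 1542 CPM in Cck/Cpne4 (233 UMIs). Pcdh9 reached 7953 CPM in motor neurons, and Cdh18 reached 3730 CPM in Spp1 beside a summed 3672 CPM in Pdyn. Pcdh15 in Crabp1, at 4096 CPM, lay between Tac1 and Npyr-1. The spread between samples of these values is not given.

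Among the 24 larger subtypes, then, Pdyn combined Cdh18, Cdh4, Cdh23 and Pcdh18 with the lowest Cdh8. Lxh1/Nxph1 combined Cdh3, Cdh20, Cdh7 and Pcdh8. Bnc2 combined Cdh8, Cdh11 and Cdh13 and had the lowest Pcdh9, Pcdh11x (23.1 ± 38.3 CPM) and Cdh20 (10.5 ± 25.7 CPM) of the 24. Pnoc shared Cdh8 with Npyr-1 and Bnc2, and Npyr-1 shared Pcdh15 with Tac1.

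Some members were higher in a glial or vascular type than in neurons, and others were lower. For 12 members the highest of the 5 glial and vascular types was above neurons in all 6 samples, and for 7 members (Cdh3, Cdh4, Cdh7, Cdh8, Cdh9, Cdh12 and Cdh18) it was below neurons in all 6. These comparisons are descriptions, as the authors' cell types rest on the same counts. The highest type was picked for each gene, and the same count was not made over all genes. In oligodendrocytes Cdh19 read 520, 490 and 656 CPM in CON and 570, 818 and 419 CPM in TESS, 60.4 times the mean of 9.59 ± 2.52 CPM in neurons. Pcdh9 read 12,370 ± 974 CPM in oligodendrocytes, 2.52 times its level in neurons. In astrocytes Cdh20 (1429 ± 127 CPM, 9.20 times neurons), Cdh10 (857 ± 199 CPM) and Cdh2 (410 ± 112 CPM) were higher than in neurons in all 6 samples. Cdh10, Cdh19 and Cdh20 were shared between these types. Summed over samples, Cdh20 stood at 1135 CPM in oligodendrocytes and 1188 CPM in OPC, and Cdh10 at 619 and 641 CPM. Cdh19 stood at a summed 466 CPM in astrocytes and 273 CPM in OPC.

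In OPC, Pcdh15 read 2821, 3045 and 2573 CPM in CON and 2864, 3417 and 2182 CPM in TESS, 1.87 times neurons, and Cdh13 read 519 ± 70.7 CPM. Microglia had Cdh23 at 890, 720 and 543 CPM in CON and 727, 512 and 734 CPM in TESS, 40.8 times neurons, from 433 UMIs. Cdh23 overlaps the coding gene Vsir, an immune checkpoint gene, on the opposite strand, so these reads are uncertain. Endothelial nuclei had Cdh5 (VE-cadherin, of vessel junctions) at 292 ± 64.0 CPM, whereas all neurons together had 2 Cdh5 UMIs.

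Excitatory and inhibitory neurons were compared next. Of 24 members tested, 15 passed (21.9% of 9929 genes did), 5 higher in excitatory (10.8% of genes) and 10 higher in inhibitory neurons (11.1%). All nuclei of the 20 subtypes with more glutamatergic and the 17 with more GABA or glycine transmitter genes were summed per sample, and edgeR was fitted with the sample as a block. Because the subtypes are clusters of these same nuclei, the p-values describe how the nuclei were divided as well as how the classes differ.

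Cdh3 had the largest difference toward inhibitory neurons, with 33.3 ± 6.60 CPM there and 5.85 ± 2.34 CPM in excitatory neurons (SD, n = 6), higher in 6 of 6 samples (log2 excitatory over inhibitory -2.39 ± 0.23, edgeR adjusted p = 2.63e-14). Cdh9 (-1.0 ± 0.13), Cdh7 (-0.94 ± 0.08) and Cdh20 (-0.88 ± 0.08) were also higher in inhibitory neurons in 6 of 6 samples. Cdh18 stood at 2001 ± 188 CPM in inhibitory and 1253 ± 252 CPM in excitatory neurons (-0.65 ± 0.05, edgeR adjusted p = 2.19e-20), although its highest subtype, Pdyn, is excitatory. Pcdh11x, Pcdh9, Cdh12, Cdh6 and Cdh23 completed the 10.

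On the excitatory side Cdh22 led, at 72.9 ± 7.78 CPM against 35.3 ± 3.04 CPM (1.09 ± 0.12). Cdh13 followed at 399 ± 39.0 against 236 ± 19.9 CPM (0.81 ± 0.06) and Cdh8 at 840 ± 72.9 against 559 ± 60.8 CPM (0.65 ± 0.05). Pcdh15 differed by 0.53 ± 0.04, higher in excitatory neurons in 6 of 6 samples, and Cdh10 by 0.23 ± 0.06, in 5 of 6. The 9 members that did not pass included Pcdh7 (-0.03), Pcdh19 (-0.01) and Cdh2 (-0.14).

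Cdh23, Cdh6 and Cdh10 were the least stable calls. Fxyd6 and V1/V2b/Slit2 hold transmitter genes of both kinds, and without them, an alternative chosen after seeing the data, Cdh23 fell short of the threshold (-0.20, edgeR adjusted p = 0.681). Cdh23 also did so without CON 1, CON 2 or CON 3 (edgeR adjusted p from 0.0622 to 0.0668), and Cdh6 without CON 3 (-0.23, edgeR adjusted p = 0.111). DESeq2 called 12 members and not these 3.

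**Figure D3:**
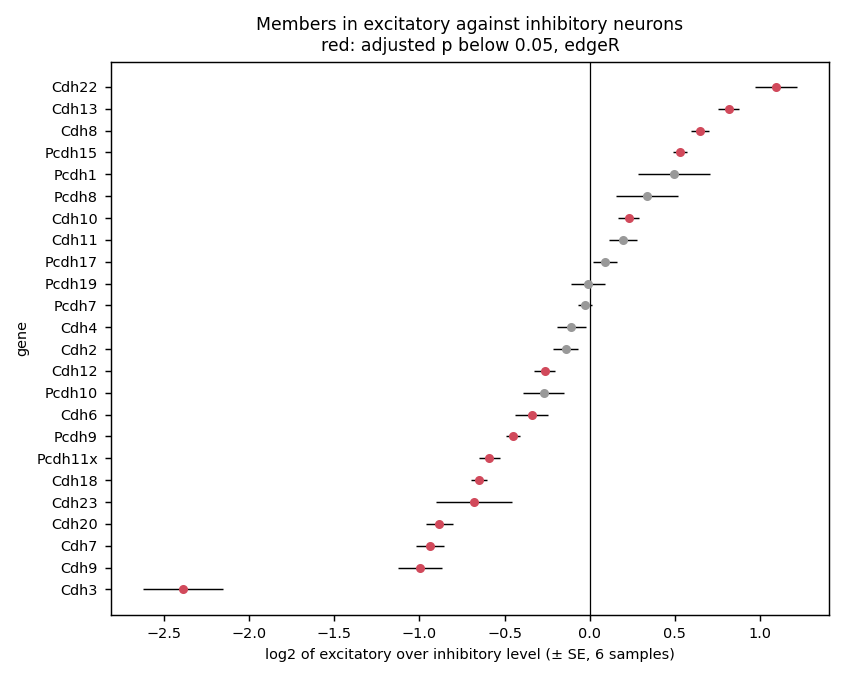
Log2 ratio of the level in excitatory over inhibitory neurons for the 24 tested members, with the standard error from 6 samples; red points have an edgeR adjusted p below 0.05. The values run from -2.39 for Cdh3 to 1.09 for Cdh22.

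Of 33 partner genes tested in the same fit, 11 passed, 4 higher in excitatory and 7 higher in inhibitory neurons. The giant cadherin Fat4 (1.78) and the catenin Ctnnd2 (0.19) were on the excitatory side. The receptor kinase Ret (-2.21), which carries cadherin repeats, Dchs2 (-1.09) and the synaptic calsyntenin Clstn2 (-1.01) were on the inhibitory side. None of 9 WAVE genes passed, and of 5 proteases only Adam10, the sheddase of N-cadherin, did (0.25).

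The study's own question is what differs after walking under TESS. In neurons none of the 26 tested members passed (edgeR, Benjamini-Hochberg adjusted p below 0.05), where 1.04% of 11,686 genes did. At an unadjusted p below 0.05 there were 2 members, Pcdh8 and Cdh23, against 14.7% of all genes, and DESeq2 also called none. The median log2 change of the members was -0.01, that of all genes was -0.005, and 24 of the 26 lay within 0.25 of 0. The other 5 members had too few counts to be tested.

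**Figure D4:**
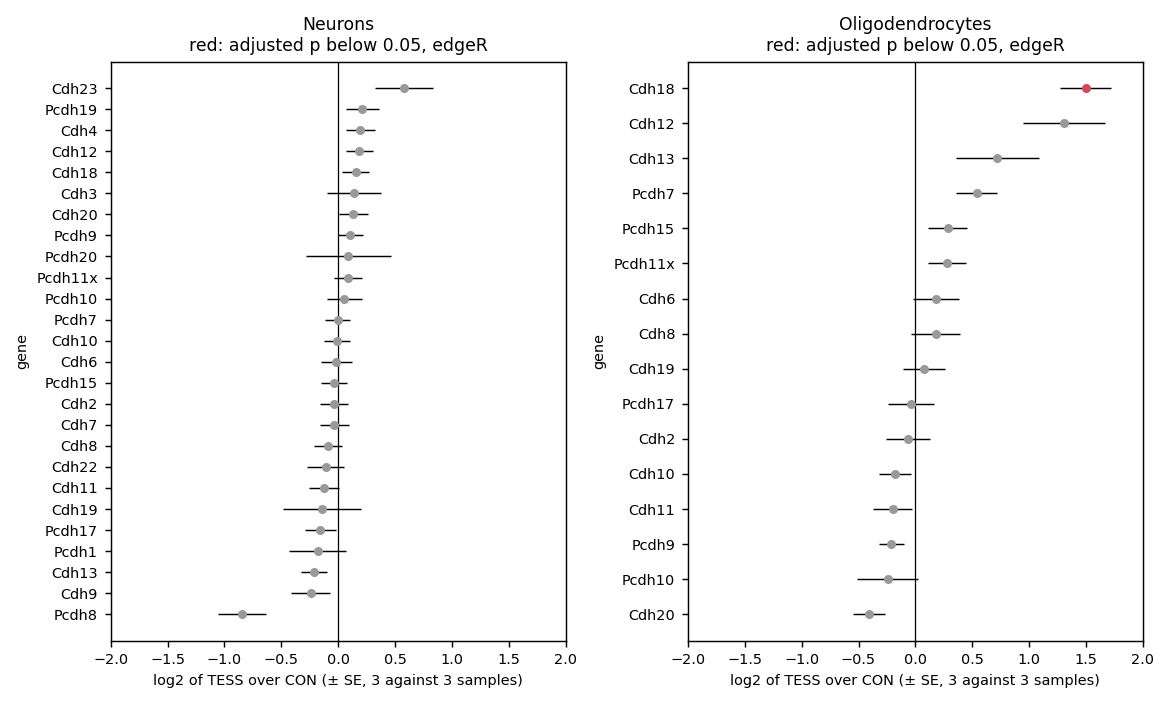
Log2 ratio of TESS over CON with its standard error for the members tested in neurons (left, 26 genes) and oligodendrocytes (right, 16 genes), 3 samples against 3; red marks an edgeR adjusted p below 0.05. In neurons Pcdh8 lies lowest at -0.85 and Cdh23 highest at 0.58 with none passing, and in oligodendrocytes Cdh18, at 1.50, passes.

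Pcdh8 came nearest. It read 32, 30.0 and 28 CPM in CON and 15.5, 17.5 and 18.3 CPM in TESS, from 83, 78 and 60 and from 28, 28 and 18 UMIs. All TESS samples were below all CON samples, which held for 19.9% of genes tested in neurons, 1 way or the other. The log2 change was -0.85 ± 0.21 (SE, n = 3 per group, edgeR adjusted p = 0.0526), and with no filter on low counts it passed (-0.87, edgeR adjusted p = 0.0202). With subtype composition held equal in both groups it was -0.52 ± 0.20 (limma adjusted p = 0.263). In excitatory and inhibitory neurons apart it was -0.90 ± 0.33 and -0.76 ± 0.29 (edgeR adjusted p = 0.190 and 0.281).

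Cdh23 read 12.4, 15.4 and 11.7 CPM in CON and 18.3, 18.1 and 25.4 CPM in TESS, again without overlap (0.58 ± 0.25, edgeR adjusted p = 0.289). Cdh13 read 314, 314 and 356 CPM against 290, 282 and 290 CPM (-0.21 ± 0.12), and Cdh4 read 118, 113 and 116 CPM against 130, 125 and 152 CPM (0.20 ± 0.13). Those 4 were the members whose groups did not overlap in neurons. Cdh12 read 274, 257 and 282 CPM in CON and 320, 331 and 284 CPM in TESS (0.19 ± 0.12), and Pcdh19 changed by 0.21 ± 0.15. None of these passed.

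Cdh18 read 1473, 1619 and 1522 CPM in CON and 1738, 1975 and 1492 CPM in TESS, with TESS 3 inside the CON range (0.15 ± 0.12, edgeR adjusted p = 0.594). With subtype composition held equal in both groups the change was -0.03. Cdh3 read 22.8, 16.5 and 17.8 CPM in CON and 16.6, 22.4 and 26.4 CPM in TESS, and the groups overlapped (0.14 ± 0.24, edgeR adjusted p = 0.838). Inside batch 3 it was -0.27.

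None of 23 members passed in edgeR in excitatory neurons (0.94% of genes did), with 5 at an unadjusted p below 0.05 (13.5% of genes). None of 24 passed in inhibitory neurons (0.229%), with 1 at an unadjusted p below 0.05 (11.9% of genes). DESeq2 called none in either class. Cdh18 changed by 0.36 ± 0.13 in excitatory (edgeR adjusted p = 0.193) and 0.02 ± 0.13 in inhibitory neurons, and the difference between these changes was not tested. In the 24 subtypes, none of 260 tests of a member passed (0.0828% of all tests did), and 12 had an unadjusted p below 0.05, 4.62% where all genes gave 7.59%. The smallest of these p belonged to Cdh8 in Bnc2, which read 2008, 2401 and 1967 CPM in CON and 1513, 1401 and 817 CPM in TESS (-0.81 ± 0.26, edgeR adjusted p = 0.51). Cdh7 in V2a/Etl4 (-0.78 ± 0.26) and Pcdh15 in Pdyn (-0.87 ± 0.29) came next. Without TESS 1, Pcdh15 in Pdyn passed (-1.30, edgeR adjusted p = 0.0138).

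In oligodendrocytes Cdh18 was the 1 member of 16 that passed, and it rose (1.65% of 8796 genes passed, 1.07% as higher in TESS). It read 63.0, 65.6 and 70.2 CPM in CON and 128, 195 and 280 CPM in TESS, from 55, 69 and 59 and from 99, 90 and 103 UMIs. The groups were far apart, and the log2 change was 1.50 ± 0.23 (SE, n = 3 per group, edgeR adjusted p = 0.000937). Leaving out any 1 sample gave 1.21 to 1.77 and kept the call. Inside batch 3 the change was 0.93 (edgeR adjusted p = 0.129) and with batch as a term 0.94 (0.0572).

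Cdh18 belongs to neurons at a far higher level, at 1637 ± 193 CPM, so the neuron markers in oligodendrocytes are given beside it. Their sum, with all 6 genes detected, was 1441, 1166 and 1529 CPM in CON and 1492, 1382 and 2406 CPM in TESS, and the groups overlapped. In this sum Snap25 and Stmn2 stood at 55.8% and 44.9% of their level in neurons. Rbfox3 stood at 7.85%, Snhg11 at 6.96%, Syt1 at 5.62% and Meg3 at 3.79%. Cdh18 itself stood at 6.69% of its level in neurons. Syt1 did not overlap, at 44.7, 66.5 and 84.5 CPM in CON and 97.0, 113 and 212 CPM in TESS. Snap25, Rbfox3, Snhg11 and Meg3 each overlapped. Cdh18 per 1000 neuron marker UMIs was 43.8, 56.2 and 45.9 in CON oligodendrocytes and 85.8, 141 and 116 in TESS oligodendrocytes, while neurons of the same samples had 63.2, 98.9 and 94.0 and 91.7, 118 and 76.0. In the oligodendrocyte nuclei without a single neuron marker UMI, a choice made after seeing the data, Cdh18 read 73.3, 59.1 and 70.2 CPM in CON and 114, 180 and 285 CPM in TESS (1.40 ± 0.27, edgeR adjusted p = 0.00448, where 1.44% of 6235 genes passed). Median UMIs per oligodendrocyte nucleus were only 397 to 536 in CON and 328 to 492 in TESS. At this depth 829 of 1668 nuclei in CON 1 and 717 of 1192 in TESS 2 had no marker UMI. The lack of a marker UMI therefore does not show that a nucleus is free of neuron RNA. Marker sums of other types also differed without overlap: 129 to 153 CPM in CON and 195 to 277 CPM in TESS for 5 OPC markers, 278 to 443 and 449 to 493 CPM for 5 astrocyte markers, and 117 to 201 and 240 to 381 CPM for 5 blood and immune cell markers. All markers of these lists were detected, and their part in the result was not tested.

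**Figure D5:**
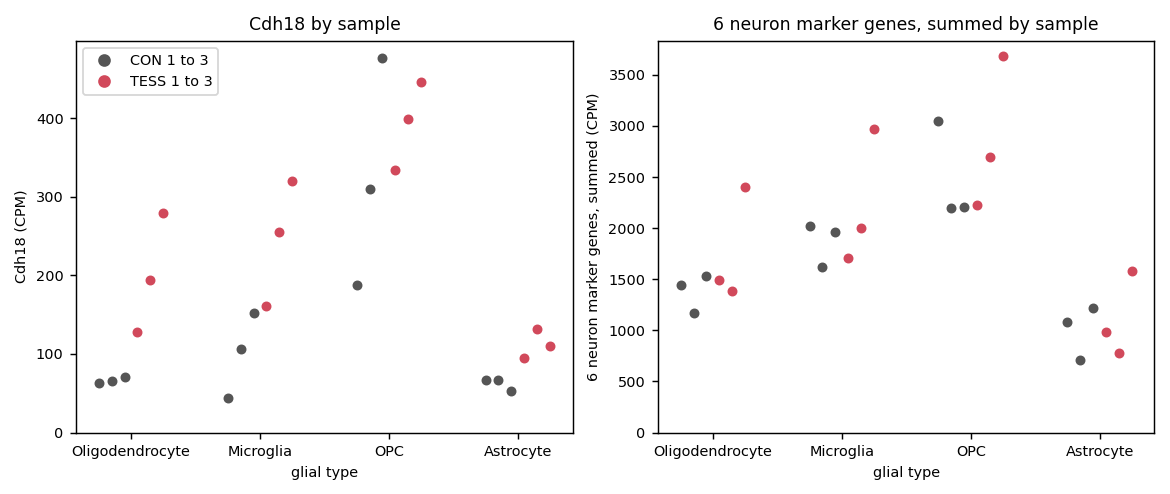
CPM of Cdh18 (left) and of 6 neuron marker genes summed (right) in 4 glial types, 1 point per sample. In oligodendrocytes Cdh18 lies at 63.0 to 70.2 CPM in CON and 128 to 280 CPM in TESS, while the neuron marker sums of the groups overlap. Syt1, a marker within that sum, does not overlap there.

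The other members tested in oligodendrocytes did not pass. With Cdh18, 4 of the 16 had an unadjusted p below 0.05 (14.4% of genes did). Cdh12 read 12.6, 16.2 and 13.1 CPM in CON and 22.0, 38.9 and 57.1 CPM in TESS (1.31 ± 0.36, edgeR adjusted p = 0.0648). Pcdh7 read 185, 206 and 237 CPM against 253, 296 and 411 CPM (0.54 ± 0.18, edgeR adjusted p = 0.143). Cdh20 read 1219, 1161 and 1295 CPM in CON and 1108, 930 and 813 CPM in TESS (-0.41 ± 0.14, edgeR adjusted p = 0.162), and Pcdh9 changed by -0.21 ± 0.11. Cdh19 changed by 0.08 ± 0.19. Groups did not overlap for 8 of the 16 members, compared with 19.7% of genes tested in oligodendrocytes. All TESS samples were above all CON samples for Cdh12, Cdh18, Pcdh11x and Pcdh7. They were below for Cdh10, Cdh20, Pcdh10 and Pcdh9. Cdh18 was therefore not alone in rising. Cdh12, like Cdh18, was below neurons in all samples even in its highest glial or vascular type. Whether the rises of such neuron-rich members share a source was not tested.

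In microglia none of 5 members passed in edgeR (0.6% of genes did), but 4 of the 5 had an unadjusted p below 0.05 (11.9% of genes) and groups that did not overlap (17.4% of genes). DESeq2 called 1 of the 5, Pcdh9 (0.87, DESeq2 adjusted p = 0.0424), and gave no adjusted p for Pcdh15 and Pcdh7. Pcdh9 read 722, 849 and 1183 CPM in CON and 1419, 1656 and 1975 CPM in TESS (0.86 ± 0.22, edgeR adjusted p = 0.0682). Pcdh15 read 96.9, 57.0 and 109 CPM in CON and 196, 202 and 188 CPM in TESS (1.18 ± 0.34), and Cdh18 read 44.0, 107 and 152 CPM against 161, 256 and 320 CPM (1.17 ± 0.37). Pcdh7 changed by 0.98 ± 0.39, and Cdh23, the member with the highest level relative to neurons there, by -0.15 ± 0.23. The 5 OPC markers summed to 114 to 203 CPM in CON microglia and 238 to 390 CPM in TESS microglia, and the 5 astrocyte markers to 405 to 565 and 633 to 696 CPM. The 6 neuron markers summed to 1619 to 2026 and 1713 to 2972 CPM. Of these, Syt1 did not overlap, at 17.6, 85.6 and 65.1 CPM in CON and 161, 135 and 150 CPM in TESS. Snap25, Rbfox3 and Snhg11 each overlapped. All markers of these lists were detected, and their part in these values was not tested.

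In astrocytes none of 12 members passed in edgeR (0.976% of genes did), 2 had an unadjusted p below 0.05 (11.6% of genes), and DESeq2 called none. Cdh10 read 905, 1186 and 945 CPM in CON and 769, 680 and 658 CPM in TESS, without overlap (-0.55 ± 0.19, edgeR adjusted p = 0.171). Groups did not overlap for 3 of the 12 members and for 16.5% of genes. Marker sums differed without overlap there too, at 6492 to 7294 CPM in CON and 8976 to 9481 CPM in TESS for the 5 astrocyte markers, and 133 to 205 and 67.4 to 110 CPM for 5 microglia markers. The neuron marker sums overlapped (713 to 1217 and 778 to 1584 CPM). Syt1 did not, at 29.3, 49.7 and 47.3 CPM in CON and 53.9, 76.7 and 158 CPM in TESS. All markers of these lists were detected, and their part in these values was not tested. In OPC none of 14 passed in edgeR (0.155% of genes did), and in endothelial nuclei neither Cdh5 nor Pcdh9 did (1.54%). In both types no member had an unadjusted p below 0.05 (8.92% and 15.3% of genes did), and DESeq2 called none. Cdh18 in OPC read 188, 310 and 477 CPM in CON and 334, 400 and 446 CPM in TESS, and the groups overlapped.

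The TESS change in each glial type was also set against that in neurons, as an interaction with the sample as a block. For oligodendrocytes 2 of 25 members differed from neurons (0.727% of 11,144 genes did): Cdh18, by 1.31 ± 0.23 (edgeR adjusted p = 0.000694), and Cdh7, by 1.93 ± 0.44 (0.0127). At an unadjusted p below 0.05 there were 9 of the 25, against 9.32% of genes. Cdh7 in oligodendrocytes rests on few counts, 3, 6 and 7 UMIs in CON and 20, 5 and 12 in TESS, and its call was lost in 5 of 9 alternatives, 4 of them the omission of CON 1, CON 2, TESS 1 or TESS 3. By edgeR no member differed in OPC (0.0635% of genes did), astrocytes (0.0691%), microglia (0.106%) or endothelial nuclei (0.0099%), and DESeq2 called none there. At an unadjusted p below 0.05 there were 2 of 26 members in OPC (4.75% of genes), 5 of 25 in astrocytes (6.2%), 9 of 25 in microglia (6.57%) and 1 of 25 in endothelial nuclei (4.1%).

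The partners of cadherins were followed from a list of 40 genes: 10 catenins, 9 WAVE complex genes, 5 proteases that cut cadherins and 16 other genes of the cadherin superfamily. In neurons none of the 35 tested passed for TESS against CON (1.04% of all genes did), 7 had an unadjusted p below 0.05 (14.7% of all genes), and DESeq2 called none. Medians were -0.06 for 8 catenins, 0.01 for 9 WAVE complex genes, 0.09 for 5 proteases and 0.14 for 13 other superfamily genes. The smallest p belonged to Celsr3, a planar cell polarity cadherin (0.69 ± 0.19, edgeR adjusted p = 0.0945). Ctnna3, an alpha catenin, changed by -0.54 ± 0.17 (edgeR adjusted p = 0.12) and passed without CON 1 (-0.76, edgeR adjusted p = 0.00763). In microglia its change differed from that in neurons by 1.39 (edgeR adjusted p = 0.0453), and DESeq2 did not call this difference.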

How the data were processed

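Single-nucleus libraries (10x version 2 chemistry, 5000 nuclei loaded) were processed by the authors with Cell Ranger 2.2.0 and Seurat 3 on mm10/GRCm38, per the submitters' processing notes. The deposited matrix holds UMI counts, whole numbers per gene and nucleus, and the deposited metadata give sample, batch, cell type, neuron subtype and a mitochondrial fraction, as deposited by the authors. How nuclei were filtered, whether introns and strand were used in counting and whether doublets were removed is not given in the sources used, and no doublet caller was run. The members, lists and tests were chosen with earlier results of these data known.

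Counts were summed per sample and cell type and tested with edgeR 4.0.16 (R 4.3.3; quasi-likelihood F test, TMM, filterByExpr at 10 counts). Calls required a Benjamini-Hochberg adjusted p below 0.05 over all genes of the class, with each subtype adjusted on its own. SE is the fold change over the square root of F. Subtypes entered with at least 10 nuclei in every sample. The fit with equal subtype weights used limma 3.58.1 on log2(CPM + 5). On simulated neuron counts (19,954 genes, 11,714 tested, 200 changed 2-fold) 84% of changed genes were recovered, with 4% false calls. Likeness is Pearson r of log2(CPM + 10) over subtypes. Subtypes were classed by their summed glutamate against GABA and glycine transmitter genes, which gave 20 excitatory, 17 inhibitory and 1 cholinergic subtype.

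Members called for TESS against CON within a class are named with every sample, as are Cdh3 and Cdh18. The 6 smallest p in neurons are named as well. Members called between excitatory and inhibitory neurons are named, but not all with their values. Patterns are named for each member's highest subtype and glial type, and partner genes where they pass. Other results that did not pass, and the smaller subtypes, were named after their values were seen. Alternatives were DESeq2 1.42.0 and its size factors, no count filter, each sample left out, a batch term, batch 3 alone, a replicate block and subtype composition held equal. Same-numbered CON and TESS samples did not deviate together, so the replicate number was not used as a pairing.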

Additional observations from a re-analysis of the deposited data

Results flagged for a closer look

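The change under TESS differed between a glial type and neurons by an interaction test for 3 genes. Cdh18 changed by 1.31 more (log2) in oligodendrocytes than in neurons, Cdh7 by 1.93 more in oligodendrocytes, and the catenin Ctnna3 by 1.39 more in microglia. The groups did not overlap for Pcdh9, in opposite directions in different cells: all TESS samples were above all CON samples in excitatory neurons (0.25) and in microglia (0.86), and all were below in oligodendrocytes (-0.21). Groups also did not overlap, 1 way or the other, for 18.1% of genes tested in excitatory neurons, 17.4% in microglia and 19.7% in oligodendrocytes. The difference between these Pcdh9 changes was not tested, and none of the 3 passed on its own (edgeR adjusted p = 0.326, 0.0682 and 0.398).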

How the results depend on the processing

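The call counts in neurons, in excitatory or inhibitory neurons and between the classes, and the log2 changes of named genes, were recomputed under each alternative that could be fitted. Of 84 counts under an alternative 67 stayed within 1.5 times the main count, and of 272 changes of single genes 253 kept their direction and side of the threshold. Where the main count was 0, only a count of 0 was taken as staying. That held for members in neurons, in excitatory or inhibitory neurons and in neuron subtypes, and for partner genes in neurons. With no filter on low counts 1 member (Pcdh8) and 1 partner gene passed in neurons, and 3 members in glial types. In glial types, where 1 member passed, DESeq2 gave 2, batch as a term 0 and batch 3 alone 0, and leaving out 1 sample gave 1 to 3 (3 without CON 3 or TESS 1, 2 without TESS 2). In neuron subtypes leaving out 1 sample gave 0 to 1 (1 without TESS 1), and for partner genes in neurons 0 to 1 (1 without CON 1). Of the 2 interaction calls DESeq2 kept 1, and leaving out 1 sample gave 1 to 2 (1 without CON 1, CON 2 or TESS 3; without TESS 1 Cdh7 was lost and Cdh12 gained). Raised pairs fell from 40 to 13 at 3 times the mean, and numbered 52 in CON alone (38 shared with the 40) and 43 in TESS alone (35 shared). The change of Cdh18 in neurons reversed to -0.033 with subtype composition held equal, and that of Cdh3 to -0.27 both with batch as a term and in batch 3 alone. The causes of these shifts were not tested. Shares of all genes that passed under each alternative are not given, so the counts of members are not set against them. DESeq2 was not run in neuron subtypes. Depth limits the weakest members: 6 of 31 had under 100 UMIs in all neurons, and Cdh3 had 0 UMIs in 12 subtypes.

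Same-numbered CON and TESS samples had correlations of -0.054, -0.0016 and -0.021 in their deviations from the group means, so they share only a number. With the replicate block 5 members passed in glial types where 1 had without it, and 0 in neurons. The share of all genes that passed with this block is not given, so the 5 cannot be set against it.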
